A study of Mus musculus with 9 samples.

Results

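The genes described here are 53 genes of S phase and M phase, taken by their symbols from RNAseq of FVB MOE cells. The study describes FVB MOE cells as a clonal line of secretory epithelial cells from the mouse oviduct, the counterpart of the human fallopian tube. The samples are thus cultures of 1 clone and not tissue. All cells were first starved of hormone for 48 h in medium with charcoal stripped serum. The groups received, over the next 24 h, either 0.1% DMSO as the solvent, 1 nM 17β-estradiol (E2) or 100 nM 4-hydroxytamoxifen (4OHT). Each group had 3 samples, numbered 1 to 3 in the labels. The labels do not say whether these were separate cultures, so p-values measure only the spread between these samples. Expression was deposited as FPKM, fragment counts divided by transcript length and by sequencing depth, a scale that allows levels of different genes to be compared. All 53 genes had a row among 23332 gene rows. *Ccne2* had 2 rows, and *Foxm1* stood in a row joined with 4933413G19Rik, so that the 2 names cannot be told apart there. Of the 54 member rows, 53 had at least 1 FPKM in at least 3 samples and were tested with 11339 rows in all. The row left out was *E2f2*, an E2F transcription factor, at a mean of 0.828 FPKM. No member row held an exact 0 in any sample.

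A dividing cell copies its DNA in S phase and separates the copies in M phase. In late G1, cyclin E with Cdk2 frees the E2F factors, which switch on the genes for origin licensing, for the replication fork and for nucleotide synthesis. Later, Foxm1 and B-Myb (*Mybl2*) switch on the genes of mitosis, among them the cyclin B and Cdk1 kinase, the Aurora and Polo kinases, the kinetochore and the anaphase-promoting complex. E2 is known as a mitogen for uterine epithelium and for many breast cancer cells, and 4OHT, the active metabolite of tamoxifen, acts on the estrogen receptor as an agonist or antagonist depending on the cell type. The comparisons ask whether the transcripts of this programme differed between the solvent, E2 and 4OHT.

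The cells expressed the programme in every group. Mean levels over the 9 samples ran from 0.828 FPKM (*E2f2*) to 216 FPKM (*Rrm2*) with a median of 32.2 FPKM, and 38 of the 53 genes lay above the median tested row. Of all members, 3 exceeded 100 FPKM: *Rrm2*, the regulatory subunit of ribonucleotide reductase, *Ube2c*, a ubiquitin-conjugating enzyme of the anaphase-promoting complex, and *Pcna*, the sliding clamp of the replication fork. *Pcna* was at 124, 164 and 139 FPKM in DMSO samples 1 to 3, at 127, 125 and 124 FPKM in E2 and at 141, 167 and 144 FPKM in 4OHT. All 3 E2 samples lay below all 3 4OHT samples, while E2 and DMSO overlapped. *Rrm2* was at 202, 264 and 199.99 FPKM in DMSO, 215, 194 and 174 FPKM in E2 and 229, 266 and 201 FPKM in 4OHT, and its groups overlapped. *Rrm1*, the catalytic subunit of the same enzyme, was at 47.4, 53.7 and 48.5 FPKM in DMSO, 49.0, 45.5 and 44.9 FPKM in E2 and 49.9, 54.0 and 47.6 FPKM in 4OHT.

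Among the cyclins and their kinases, the mitotic kinase *Cdk1* had the highest level. It was at 63.0, 78.9 and 67.3 FPKM in DMSO, 64.7, 61.5 and 63.0 FPKM in E2 and 69.1, 81.9 and 71.0 FPKM in 4OHT. Its partner in G2, cyclin A (*Ccna2*), was at 51.1, 62.4 and 56.3 FPKM in DMSO, 54.0, 50.1 and 52.1 FPKM in E2 and 57.1, 62.5 and 59.0 FPKM in 4OHT. For both genes all E2 samples lay below all 4OHT samples and overlapped with DMSO. Of the mitotic kinases and checkpoint genes, *Birc5* (survivin, of the chromosomal passenger complex) was at 44.9, 58.2 and 46.5 FPKM in DMSO, 45.9, 42.6 and 38.0 FPKM in E2 and 47.7, 61.1 and 48.4 FPKM in 4OHT. The checkpoint gene *Mad2l1* was at 42.5, 50.2 and 44.9 FPKM in DMSO, 46.2, 40.7 and 42.1 FPKM in E2 and 45.6, 51.3 and 47.1 FPKM in 4OHT. *E2f1*, after *Foxm1* the highest of the transcription factors, was at 11.5, 14.1 and 11.2 FPKM in DMSO, 11.5, 12.2 and 10.8 FPKM in E2 and 12.8, 14.1 and 11.1 FPKM in 4OHT, and its groups overlapped.

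*Ube2c* was at 189, 252 and 206 FPKM in DMSO, 184, 188 and 184 FPKM in E2 and 212, 257 and 208 FPKM in 4OHT. The E2 samples were the 3 lowest of the 9, although the distance of the first DMSO sample to them was small. Securin (*Pttg1*), which holds separase inactive until anaphase, was at 47.1, 51.0 and 44.2 FPKM in DMSO, 46.9, 41.1 and 40.1 FPKM in E2 and 48.1, 53.4 and 47.5 FPKM in 4OHT. *Anln* (anillin, of the cleavage furrow) was at 48.9, 60.6 and 50.2 FPKM in DMSO, 54.5, 52.7 and 48.7 FPKM in E2 and 52.4, 60.6 and 52.0 FPKM in 4OHT. *Cenpa*, the histone H3 variant of the centromere, was at 48.4, 62.1 and 48.9 FPKM in DMSO, 48.3, 45.8 and 43.5 FPKM in E2 and 50.4, 59.9 and 52.5 FPKM in 4OHT. *Anln* overlapped between all groups, whereas *Cenpa* was lowest in the E2 samples by a margin of under 1 FPKM.

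**Figure D1:**
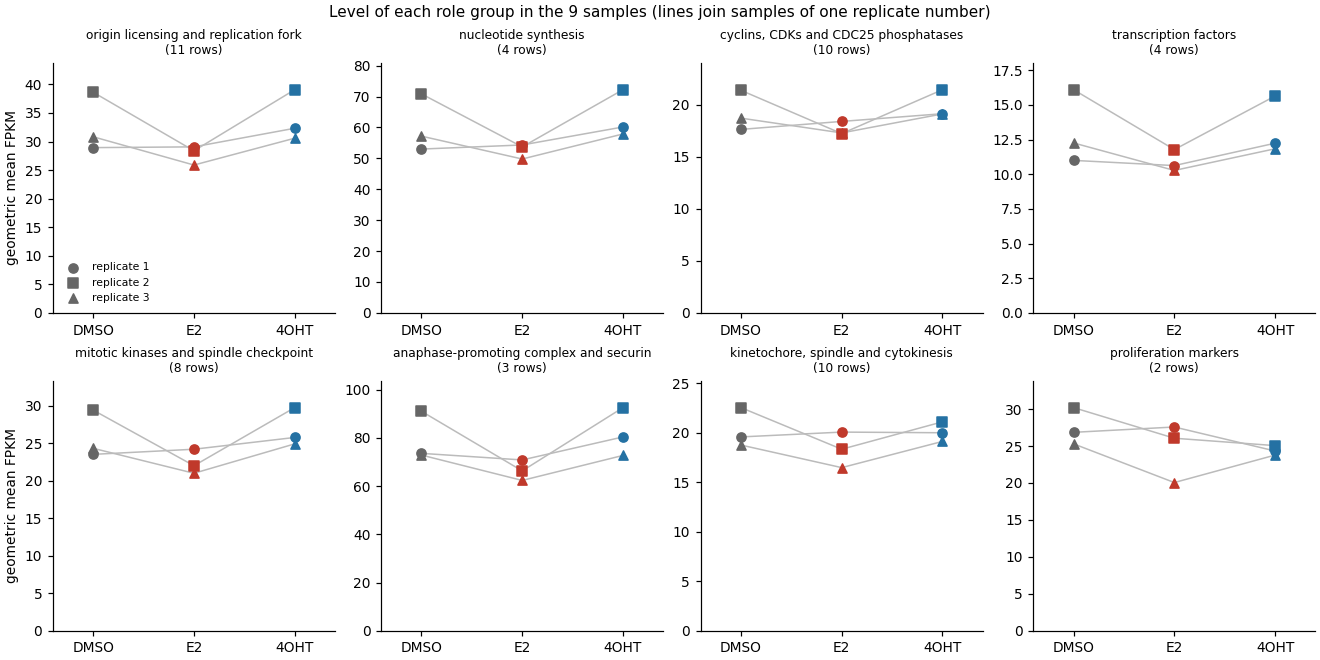
Geometric mean FPKM (y axis, from 0) of the members of each role group in the DMSO, E2 and 4OHT samples (x axis); each point is 1 sample, its shape gives the replicate number and grey lines join samples of 1 number. In 7 of the 8 role groups, the panel of proliferation markers being the other one, the replicate 2 samples of DMSO and 4OHT stand above the remaining samples; the second *Ccne2* row is left out.

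The members moved together within groups as well as between them. Over the 52 tested genes, the geometric mean was 24.2, 30.4 and 25.0 FPKM in DMSO samples 1 to 3, 24.6, 23.4 and 21.7 FPKM in E2 and 26.1, 29.9 and 25.1 FPKM in 4OHT. The samples numbered 2 were thus the highest of their group in DMSO and in 4OHT but not in E2. In DMSO, 52 of the 53 member rows were highest in sample 2, in 4OHT 47 were, and in E2 11 were. The median difference between samples 2 and 1, on the log2(FPKM + 1) scale used for every difference below, was 0.29 in DMSO and 0.19 in 4OHT over the member rows and -0.08 in E2, against 0.01, 0.01 and -0.02 over all tested rows. Over the members, the coefficient of variation between the 3 samples had a median of 12.8% for DMSO, 7.43% for E2 and 10.3% for 4OHT, beside 8.48%, 7.35% and 8.17% over all tested rows. The first DMSO sample, at 24.2 FPKM, was level with the first E2 sample on the FPKM scale as deposited.

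In the series as a whole, FPKM totals per sample were 522517 to 588640, and 11037 to 11175 rows reached 1 FPKM. The files used here hold no counts, but the value of 1 fragment in low rows gives the depth of each sample relative to the first DMSO sample, which ran from 0.822 to 1.18. DMSO sample 2 was the deepest of the 9 and 4OHT sample 2 the shallowest, although the members were high in both. The label of oviductal epithelium was checked on marker genes: *Krt8*, *Krt18*, *Krt7*, *Krt19* and *Pax8* were between 105 and 927 FPKM in all samples, while *Epcam* (at most 0.138 FPKM) and *Cdh1* (at most 0.422 FPKM) were near 0 and the secretory product *Ovgp1* was at 1.44 to 2.61 FPKM. The summed level of these 8 epithelial markers was 1415 to 1558 FPKM in DMSO, 2322 to 2562 FPKM in E2 and 1473 to 1673 FPKM in 4OHT. Of the other cell types, the fibroblast markers *Col3a1*, *Col1a2* and *Lum* and the leukocyte markers *Ptprc* and *Cd3e* were at or near 0 in all samples, while *Cd68*, a marker of macrophages, was at 3.01 to 4.01 FPKM. The summed leukocyte markers were 3.97 to 4.02 FPKM in DMSO, 3.54 to 3.83 FPKM in E2 and 3.02 to 3.71 FPKM in 4OHT. The summed 6 fibroblast markers were 3.65 to 7.79 FPKM in DMSO, 10.7 to 23.2 FPKM in E2 and 5.21 to 8.51 FPKM in 4OHT, and 2 of the 6, *Dcn* and *Col1a1*, reached 1 FPKM. The 4 ciliated cell markers with a row summed to 18.0 to 20.6 FPKM in DMSO, 13.8 to 17.7 FPKM in E2 and 18.4 to 20.5 FPKM in 4OHT. Most of this sum was *Foxj1*, at 8.95 to 15.9 FPKM and thus above *Ovgp1*, followed by *Rsph1* at 2.98 to 3.86 FPKM. The 4 endothelial markers summed to 0.638 to 0.837 FPKM in DMSO, 1.18 to 1.42 FPKM in E2 and 0.722 to 0.870 FPKM in 4OHT, and only *Kdr* reached 1 FPKM. In these bulk cultures, fewer cells in S or M phase and less RNA of these genes per cell cannot be told apart.

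With E2, nearly all members had lower means than with DMSO, by a small margin. The difference of the group means had a median of -12.2% over the 52 tested genes and ran from -24.7% (*Mybl2*) to -1.73% (*Cdk2*). On the log2 scale 52 of the 53 member rows were below 0, with a median of -0.17 against -0.003 over all tested rows. The remaining row was the second *Ccne2* row, a weak one at 1.16, 0.809 and 1.44 FPKM in DMSO and 0.930, 2.08 and 2.76 FPKM in E2, with a log2 fold change of 0.41 (SE 0.37). The other *Ccne2* row was 0.05 lower. Without regard to the replicate numbers, 0 of the 53 rows passed an adjusted p under 0.05 by limma with Benjamini-Hochberg adjustment (smallest adjusted p 0.357), where 0.512% of all tested rows were called. At an unadjusted p under 0.05 there were 4 member rows, all lower (*Mcm7*, *Tpx2*, *Ccnb2* and *Ttk*), where 3.23% of all tested rows were called lower.

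The E2 and DMSO samples did not overlap for 11 member rows, all lower with E2, where 6.05% of all tested rows were lower in the same way. These were *Mcm2*, *Mcm3*, *Mcm5* and *Mcm7* of the replicative helicase, *Bub1b* and *Ttk* of the spindle checkpoint, *Ube2c* and *Cdc20* of the anaphase-promoting complex, and *Cenpa*, *Nuf2* and *Tpx2* of the kinetochore and spindle. By role, the median log2 fold change was -0.23 over the 11 origin licensing and fork genes, -0.24 over the 4 transcription factors, -0.21 over *Ube2c*, *Pttg1* and *Cdc20*, -0.20 over the 8 mitotic kinases and checkpoint genes, -0.16 over the 10 kinetochore, spindle and cytokinesis genes, -0.16 over *Top2a* and *Mki67*, -0.15 over the 4 nucleotide synthesis genes and -0.11 over the 11 rows of cyclins, CDKs and CDC25 phosphatases. The medians were below 0 for the roles of S phase and of M phase alike, and no test between the roles was made. The 95% interval of a single row's log2 fold change, in the fit without the block, reached 0.25 to either side in the median.

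The difference from DMSO was not alike in the 3 replicate numbers. Between the samples numbered 1, the median over the member rows was 0.03 with 24 of 53 lower. Between those numbered 2 it was -0.35 with 52 lower, and between those numbered 3 it was -0.18 with 52 lower. Over all tested rows the same medians were 0.01, -0.01 and 0.001. Of the 53 member rows, 23 (43.4%) were lower in all 3 same-numbered pairs, where 24.3% of all tested rows were. When DMSO sample 2 was left out, the members' median was -0.08 in place of -0.17, and without E2 sample 3 it was -0.13.

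**Figure D2:**
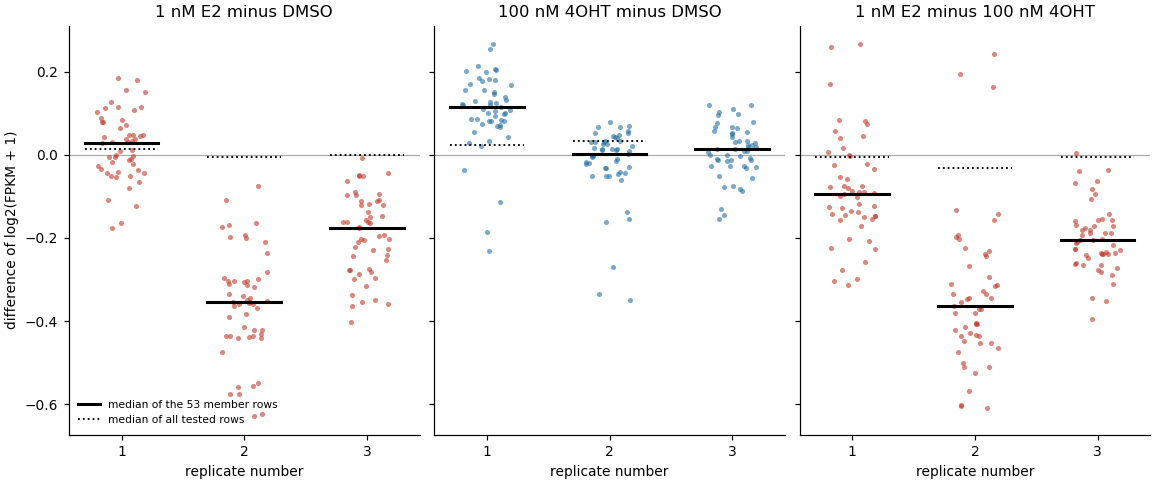
Difference of log2(FPKM + 1) (y axis) between same-numbered samples (x axis, replicate number) for E2 minus DMSO, 4OHT minus DMSO and E2 minus 4OHT; each point is 1 member row, solid bars are the median of the 53 member rows and dotted bars the median of all tested rows. For E2 minus DMSO the solid bars stand at 0.03, -0.35 and -0.18; the points of the second *Ccne2* row are not drawn.

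With the replicate number as a block in the fit, 5 member rows passed the threshold, all lower with E2, where 4.63% of all tested rows were called lower. They were *Mcm7* and *Mcm3*, subunits of the helicase that is loaded at origins and unwinds the fork, the transcription factors *Mybl2* and *Foxm1*, and *Kif20a*, a kinesin of cytokinesis. *Mcm7* was at 72.7, 102 and 80.1 FPKM in DMSO and at 64.2, 65.9 and 62.4 FPKM in E2. Every E2 sample was thus below every DMSO sample, with group means of 85.1 ± 15.5 and 64.2 ± 1.77 FPKM (SD, n = 3). Between these groups the log2 fold change was -0.39 (SE 0.13 without and 0.080 with the block), with a limma adjusted p of 0.357 without and 0.0276 with the block.

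*Mcm3* was at 35.9, 49.2 and 35.2 FPKM in DMSO and 33.3, 33.1 and 27.6 FPKM in E2, again without overlap (means 40.1 ± 7.92 and 31.3 ± 3.23 FPKM, SD, n = 3). Its log2 fold change was -0.33 (SE 0.16 and 0.080), with a limma adjusted p of 0.517 without and 0.0410 with the block. *Mybl2* was at 10.1, 16.9 and 12.6 FPKM in DMSO and 8.94, 11.3 and 9.65 FPKM in E2 (means 13.2 ± 3.45 and 9.95 ± 1.19 FPKM). Here the groups overlapped, but each E2 sample was below the DMSO sample of its number. The log2 fold change of *Mybl2* was -0.35 (SE 0.20 and 0.083), with a limma adjusted p of 0.582 without and 0.0397 with the block.

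*Foxm1* was at 22.4, 29.1 and 24.2 FPKM in DMSO and 21.3, 22.8 and 19.8 FPKM in E2 (means 25.2 ± 3.49 and 21.3 ± 1.53 FPKM). The log2 fold change of *Foxm1* was -0.23 (SE 0.12 and 0.055), with a limma adjusted p of 0.540 without and 0.0429 with the block. *Kif20a* was at 20.1, 22.0 and 17.6 FPKM in DMSO and 19.0, 17.0 and 15.3 FPKM in E2 (means 19.9 ± 2.18 and 17.1 ± 1.86 FPKM). The log2 fold change of *Kif20a* was -0.21 (SE 0.11 and 0.052), with a limma adjusted p of 0.556 without and 0.0462 with the block. Both genes overlapped between the groups and were lower with E2 in each same-numbered pair. *Cdc20*, the activator of the anaphase-promoting complex, had the second most negative log2 fold change (-0.37, SE 0.17) and did not pass, with a limma adjusted p of 0.500 without and 0.0562 with the block.

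The 5 calls depended on which replicate numbers entered the fit. In the blocked fit without all samples numbered 1, 5 member rows passed, but most were not the same rows. By role there was 1 row each of origin licensing and fork, nucleotide synthesis, transcription factors, mitotic kinases and checkpoint, and cyclins, CDKs and CDC25 phosphatases. Nucleotide synthesis, mitotic kinases and cyclins had 0 calls in the blocked fit of all 9 samples. Without the samples numbered 1, 0 kinetochore, spindle and cytokinesis rows were called, the role of *Kif20a*. Without those numbered 2 or those numbered 3, 0 passed. The fits on 6 samples also called fewer rows of the whole table, with 542, 305 and 155 rows against 1702 in the blocked fit of all 9. Taking exact zeros in other rows as missing changed no member value but lowered the adjusted p, and 13 member rows then passed with the block, all lower, where 6.59% of all tested rows were called lower.

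With E2, the members were also lower than with 4OHT, and more of them stood apart from 4OHT than from DMSO, although both comparisons share the E2 samples and the difference between them was not tested. The log2 fold change was below 0 in 49 of the 53 rows, with a median of -0.23 against -0.01 over all tested rows. The difference of the group means ran from -27.4% (*Tk1*) to 9.67% (*Cenpe*). The highest log2 fold changes were those of the second *Ccne2* row at 0.14, *Cenpe* at 0.11 and *Mki67* at 0.10, and none passed (limma adjusted p 0.896, 0.731 and 0.752). No row passed without the block (0 of 53, smallest limma adjusted p 0.372), where 0.159% of all tested rows were called. At an unadjusted p under 0.05 there were 16, all lower, where 5.35% of all tested rows were called lower. All E2 samples lay below all 4OHT samples for 26 of the 53 rows, where 9.90% of all tested rows did, and 0 rows lay above. By role these were 8 of 11 origin licensing and fork genes, 5 of 8 mitotic kinases and checkpoint genes, 4 of 11 rows of cyclins, CDKs and CDC25 phosphatases, 3 of 10 kinetochore, spindle and cytokinesis genes, 2 of 4 nucleotide synthesis genes, 2 of 4 transcription factors, 2 of 3 anaphase-promoting complex and securin genes and 0 of 2 proliferation markers.

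The 3 same-numbered pairs had the same direction here, with medians of -0.09, -0.36 and -0.20 and with 42, 49 and 51 of the 53 rows lower. Of the member rows, 41 (77.4%) were lower with E2 in all 3 pairs, where 30.9% of all tested rows were. With the block, 11 member rows passed, all lower with E2, where 7.60% of all tested rows were called lower. They held all 5 rows called against DMSO. The other 6 were *Tk1* (thymidine kinase of the salvage pathway), *Cdt1* (which loads the helicase at origins), *Ccne1* (cyclin E), *Mcm5* of the helicase, *Tpx2* (which activates Aurora A on the spindle) and *Cdc20*. The called rows shared by both comparisons are 100% of the list against DMSO and 45.5% of the list against 4OHT, and both use the same E2 samples.

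*Tk1* was at 25.6, 28.8 and 24.3 FPKM in E2 and 31.6, 44.5 and 32.3 FPKM in 4OHT, without overlap, and at 26.4, 43.4 and 32.5 FPKM in DMSO. Against 4OHT its log2 fold change was the most negative of the members, -0.43 (SE 0.19 and 0.096), with a limma adjusted p of 0.438 without and 0.0343 with the block. *Cdt1* was at 21.5, 23.5 and 21.6 FPKM in E2 and 26.0, 36.2 and 26.6 FPKM in 4OHT, without overlap, and at 22.4, 35.1 and 26.3 FPKM in DMSO. Against 4OHT its log2 fold change was -0.38 (SE 0.17 and 0.093), with a limma adjusted p of 0.449 without and 0.0425 with the block. For both genes the samples numbered 2 of DMSO and 4OHT were far above the others.

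*Mcm7* was at 78.1, 98.3 and 79.9 FPKM in 4OHT, close to its DMSO values, and its log2 fold change between E2 and 4OHT was -0.40 (SE 0.13 and 0.080) with a limma adjusted p of 0.372 without and 0.0276 with the block. *Ccne1* was at 8.99, 8.85 and 10.1 FPKM in E2 and 10.3, 12.3 and 11.7 FPKM in 4OHT, without overlap, and at 9.36, 11.7 and 11.4 FPKM in DMSO. Against 4OHT it differed by a log2 fold change of -0.27 (SE 0.10 and 0.066), with a limma adjusted p of 0.402 without and 0.0444 with the block. *Mcm5* was at 33.2, 32.8 and 28.9 FPKM in E2 and 39.0, 46.0 and 34.5 FPKM in 4OHT, and at 33.5, 44.7 and 35.7 FPKM in DMSO, above E2 in both. *Tpx2* was at 34.7, 34.5 and 32.5 FPKM in E2, 38.3, 42.5 and 38.2 FPKM in 4OHT and 35.9, 42.8 and 37.4 FPKM in DMSO. It had one of the smallest differences of the 11 and also a small spread, with a log2 fold change against 4OHT of -0.22 (SE 0.076 and 0.049) and a limma adjusted p of 0.376 without and 0.0354 with the block.

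*Cdc20* was at 41.2, 37.8 and 32.9 FPKM in E2, 51.1, 57.9 and 38.9 FPKM in 4OHT and 44.9, 58.7 and 42.6 FPKM in DMSO. The third 4OHT sample lay inside the E2 range, yet each E2 sample was below the 4OHT sample of its number, and the limma adjusted p was 0.446 without and 0.0498 with the block. In 4OHT, *Mcm3* was at 39.1, 47.6 and 34.5 FPKM and *Foxm1* at 23.8, 29.5 and 24.2 FPKM, both above all E2 samples. *Mybl2*, at 11.4, 16.7 and 11.3 FPKM, and *Kif20a*, at 22.1, 21.7 and 18.2 FPKM, overlapped with E2. The log2 fold changes against 4OHT of *Mcm5*, *Mcm3*, *Mybl2*, *Foxm1* and *Kif20a* were -0.32, -0.35, -0.35, -0.26 and -0.26, and the limma adjusted p with the block was 0.0492, 0.0369, 0.0415, 0.0306 and 0.0274. These values were close to the threshold, and in the blocked fit without the samples of any 1 replicate number 0 of the 53 rows passed, while 234, 167 and 85 rows of the whole table did against 1840 in the blocked fit of all 9. With exact zeros as missing and the block, 24 rows passed, all lower, where 11.1% of all tested rows were called lower.

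**Figure D3:**
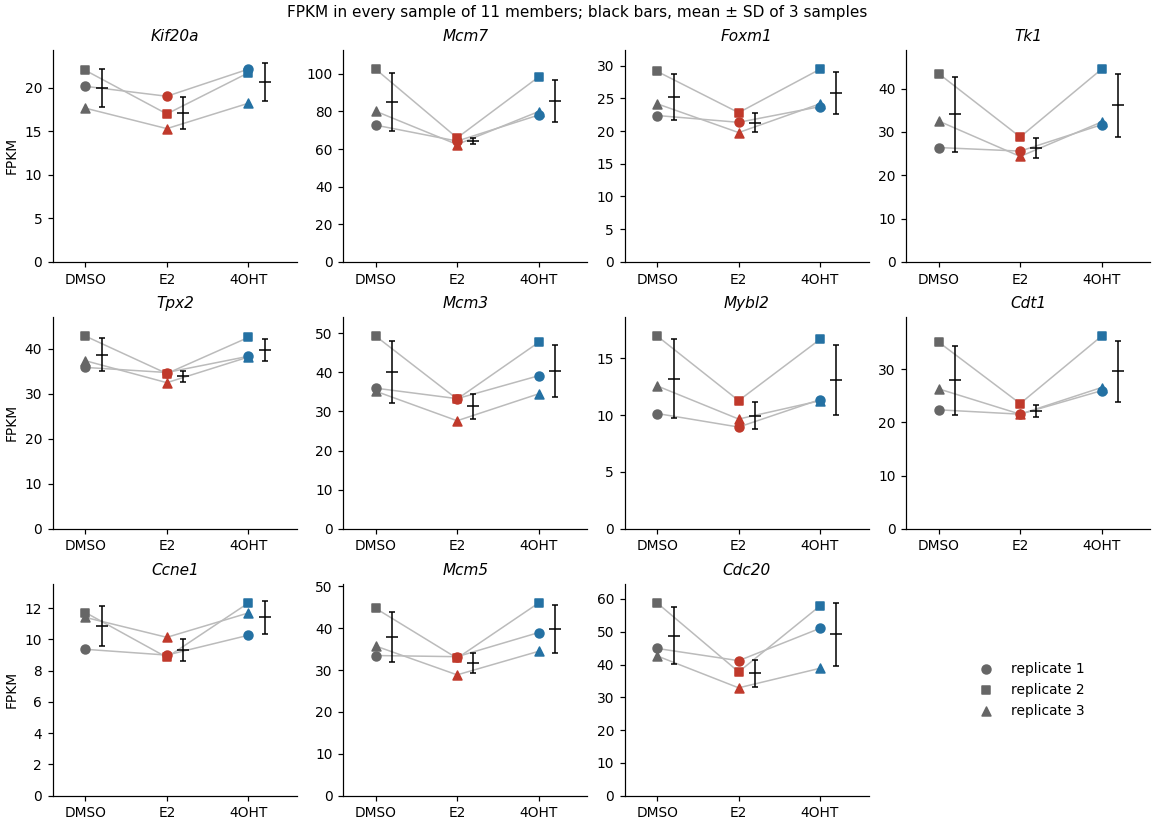
FPKM (y axis, from 0) of the 11 members past the threshold between E2 and 4OHT with the replicate block, in the DMSO, E2 and 4OHT samples (x axis); points are single samples, their shape gives the replicate number, grey lines join samples of 1 number and black bars are the mean ± SD of 3 samples. The squares (replicate 2) are the highest point of DMSO and 4OHT in each panel except for *Kif20a* in 4OHT, and lie lower in E2, as for *Mcm7* at 102, 65.9 and 98.3 FPKM.

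Between 4OHT and DMSO, 0 of the 53 rows passed without or with the block, where 0% of all tested rows were called in either fit, and the smallest limma adjusted p was 1.000 without and 0.380 with the block. At an unadjusted p under 0.05 the count was 0 without and 1 with the block (*Mki67*, lower), where 1.57% and 4.55% of all tested rows were called lower. Of the 11339 tested rows, 7123 had a log2 fold change above 0, and the median over all of them was 0.03. Among the member rows the log2 fold change was above 0 in 48 of the 53, with a median of 0.04. This direction depended on the scaling, since with each sample scaled to the same upper quartile or the same FPKM total the median was -0.02 and 33 of the 53 rows were below 0. It also turned to -0.02 without DMSO sample 1 and to -0.03 without 4OHT sample 2, and was 0.15 without DMSO sample 2. The difference of means had a median of 2.64% over the 52 genes, and no interval was computed for a median over the members in any comparison. The 3 highest log2 fold changes were those of the second *Ccne2* row at 0.27 (SE 0.37), of *Tyms* (thymidylate synthase) at 0.12 (SE 0.10) and of *Gmnn* (geminin, the inhibitor of Cdt1) at 0.09 (SE 0.13). None of these passed (limma adjusted p 1.000 for each without the block). *Tyms* was at 31.3, 40.9 and 33.9 FPKM in DMSO and 36.1, 42.5 and 36.3 FPKM in 4OHT, and at 32.3, 32.6 and 32.4 FPKM in E2. *Gmnn* was at 14.8, 16.7 and 13.8 FPKM in DMSO, 18.0, 17.2 and 13.5 FPKM in 4OHT and 16.9, 14.5 and 12.8 FPKM in E2. The second *Ccne2* row was at 2.08, 0.460 and 2.75 FPKM in 4OHT. For all 3 rows the 4OHT and DMSO samples overlapped.

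The 3 lowest log2 fold changes with 4OHT were those of *Mki67* (the Ki-67 antigen of cycling cells) at -0.25 (SE 0.13), *Cenpf* at -0.20 (SE 0.11) and *Cenpe* at -0.15 (SE 0.13), both kinetochore proteins, and these did not pass either (limma adjusted p with the block 0.380, 0.394 and 0.447). *Mki67* was at 15.9, 17.3 and 14.7 FPKM in DMSO, 13.4, 13.3 and 13.1 FPKM in 4OHT and 16.3, 15.9 and 11.2 FPKM in E2. *Cenpf* was at 5.67, 6.21 and 5.27 FPKM in DMSO, 4.87, 4.72 and 4.95 FPKM in 4OHT and 5.60, 5.40 and 4.04 FPKM in E2. These were the 2 members whose 4OHT samples all lay below the DMSO samples, where 3.57% of all tested rows did so. *Cenpe* was at 11.2, 11.3 and 9.89 FPKM in DMSO, 10.3, 9.25 and 9.30 FPKM in 4OHT and 12.6, 10.7 and 8.34 FPKM in E2. *Top2a* (topoisomerase IIα), the other proliferation marker, was at 45.2, 52.9 and 43.6 FPKM in DMSO, 46.7, 42.6 and 35.9 FPKM in E2 and 44.1, 47.1 and 43.3 FPKM in 4OHT.

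*Mki67*, *Cenpf* and *Cenpe* have the longest transcripts of the members, with longest annotated transcripts of 10061, 11130 and 7910 bases. Transcript length moved with the 4OHT difference in the whole table. The median log2 fold change of 4OHT against DMSO was 0.06 in rows up to 2 kb, 0.04 in rows of 2 to 4 kb, 0.01 in rows of 4 to 6 kb, -0.03 in rows of 6 to 8 kb and -0.08 in rows over 8 kb. Spearman's rho with length was -0.32 across 11241 rows and -0.45 across the 53 member rows, which share their libraries and are not independent. For E2 against DMSO rho was 0.08 and 0.17, and for E2 against 4OHT 0.25 and 0.36. In E2 against DMSO the members were below 0 in every length class, with medians from -0.19 to -0.07, while the class medians of all rows stayed between -0.02 and 0.02. Against 4OHT, the *Mki67*, *Cenpf* and *Cenpe* rows were above 0 with E2 (0.10, 0.03 and 0.11). The median of all rows was 0.10 over 8 kb, the class of *Mki67* and *Cenpf*, and 0.04 at 6 to 8 kb, the class of *Cenpe*. The other member at 6 to 8 kb, *Mad2l1* with 7557 bases, went the other way. Its log2 fold change was 0.07 for 4OHT against DMSO and -0.16 for E2 against 4OHT. The part of transcript length in these values was not tested.

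**Figure D4:**
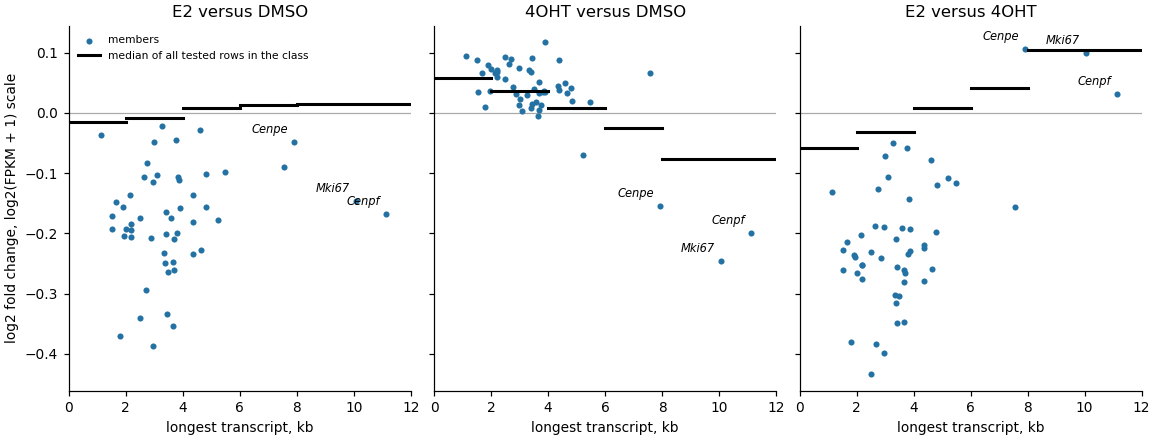
Log2 fold change on the log2(FPKM + 1) scale (y axis) of the members against the length of their longest transcript in kb (x axis) in the 3 comparisons; blue points are members and black bars the median of all tested rows in 5 length classes. In 4OHT against DMSO the bars descend from 0.06 to -0.08 and *Mki67*, *Cenpf* and *Cenpe* stand below 0; in E2 against DMSO the bars stay near 0 and the members lie below them; the second *Ccne2* row is not drawn.

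A shift of the replicate number common to all treatments was called in a minority of the members. In a limma F test of the number, 13 of the 53 member rows passed an adjusted p under 0.05, where 44.8% of all tested rows were called. A shift seen in DMSO and 4OHT but not in E2 enters this test only in part. The count thus does not measure how much the members varied between numbers within a group. The member with the smallest adjusted p was *Mybl2* (0.0106), followed by *Kif20a* (0.0184) and *Foxm1* (0.0194). *Foxm1*, *Mybl2*, *E2f1*, *Mcm3*, *Mcm6*, *Cdt1*, *Gmnn*, *Tk1*, *Cdc20*, *Cdc25b*, *Ccnb1*, *Kif20a* and *Kif23* made up the 13. Of these 13, sample 2 was the highest of its group for 13 in DMSO, 11 in 4OHT and 7 in E2. With exact zeros of other rows as missing, 23 of the 53 member rows passed (43.4%), where 49.7% of all tested rows were called.

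**Figure D5:**
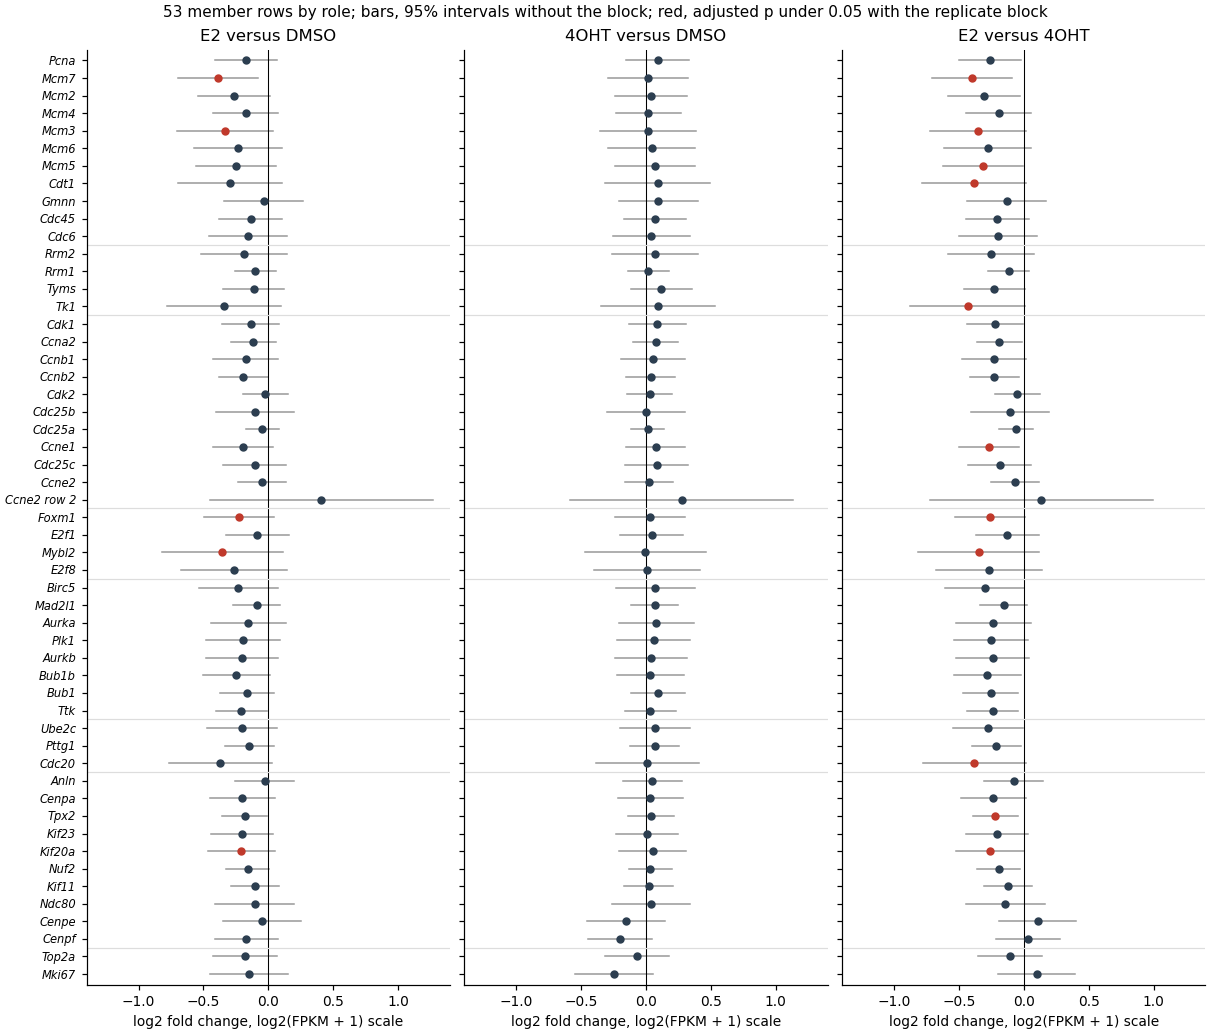
Log2 fold change on the log2(FPKM + 1) scale (x axis) of the 53 member rows (y axis, grouped by role and ordered by level) in the 3 comparisons; grey bars are 95% intervals of the limma fit without the block and red points mark rows with an adjusted p under 0.05 with the block. With E2 the points lie left of 0 in 52 rows against DMSO and 49 rows against 4OHT, with 5 and 11 red points, and with 4OHT against DMSO there are 0 red points.

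Further genes of replication and mitosis, taken from lists of pathway genes outside the 53, were set beside the members. Of 46 rows of other DNA replication genes, 43 were lower with E2 than with DMSO (median log2 fold change -0.17), 0 passed without the block and 4 passed with it, all lower: *Pole* at -0.30 and *Pold2* at -0.28, of the replicative polymerases, *Gins1* at -0.31, of the GINS complex that moves with the helicase, and *Orc5* at -0.14, of the origin recognition complex. Against 4OHT, 44 were lower (median -0.19), 0 passed without the block and 8 with it, all lower, among them *Gins1* at -0.36, *Pold2* at -0.35 and *Mcm10* at -0.30. Between 4OHT and DMSO 0 passed in either fit. Without the block *Orc4* at 0.09 and *Rfc3* at 0.13 had the smallest unadjusted p there, and with the block *Pole* at -0.19 did. Without the block, the smallest p in this list belonged to *Mcm8* at -0.23 and *Orc5* at -0.14 against DMSO (limma adjusted p 0.439 and 0.444). Of 69 rows of other mitosis genes, 68 were lower with E2 than with DMSO (median -0.15), 0 passed without the block and 8 with it, all lower. The largest of these 8 changes were those of *Gtse1* at -0.29, *Espl1* (separase) at -0.27 and *Ckap2* at -0.25. Without the block, *Cenpn* at -0.22 and *Spc24* at -0.23 had the smallest p (limma adjusted p 0.357 and 0.364). Against 4OHT 65 were lower (median -0.19), 0 passed without the block and 13 with it, all lower. *Cenpm* at -0.38 and *Cdca3* at -0.35 were among the largest changes. Between 4OHT and DMSO 0 of the mitosis rows passed in either fit, and the smallest unadjusted p without the block belonged to the *Hjurp* row at -0.22 and to *Ccnf* at 0.54. In shares with the block, 9.43% of the member rows, 8.70% of the other replication rows and 11.6% of the other mitosis rows were called lower with E2 against DMSO, and 20.8%, 17.4% and 18.8% against 4OHT. Over all tested rows, 4.63% were called lower against DMSO and 7.60% against 4OHT.

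By role, the promoters of the members held E2F sites and cell cycle genes homology regions in different shares, and CCAAT boxes in similar shares. RefSeq promoters on GRCm38.p6, from 250 bases before to 50 bases after the start, were at hand for 44 of the 53 genes (46 promoters, *E2f2* and *Mcm7* having 2 each) and were searched on both strands. An E2F site (TTTCCCGC, TTTGGCGC, TTTCCCGG, TTTCGCGC or TTTGCCGC) was found in 23.9% of the members' promoters in 3.48% of all 32851 promoters and in 6.23% of the 10044 promoters of tested genes. A CCAAT box was found in 71.7%, 37.4% and 38.1% of them, and the cell cycle genes homology region (TTTGAA or TTTAAA) in 58.7%, 27.6% and 19.0%. Of 14 promoters of origin licensing, fork and nucleotide synthesis members, 6 held an E2F site and 5 the homology region. Of 18 promoters of mitotic members, 1 held an E2F site and 14 the homology region. The CCAAT box was found in 10 of these 14 replication promoters (71.4%) and in 12 of the 18 mitotic ones (66.7%). A full estrogen response element, GGTCA and TGACC with 3 bases between them, was found in 0 of the 46 promoters. It was also found in 0 of the 10044 promoters of tested genes, and in 0.0700% of all promoters, so its absence does not set the members apart. A match describes letters only, and the absence of a match says nothing about binding elsewhere.

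The following stretches of 170 bases before the start show these elements in 4 of the 11 members past the threshold with the block: *Mcm5* and *Mcm3* of the helicase, *Cdc20* of mitosis, and *Mybl2*, which held no match. Capitals mark E2F sites, CCAAT boxes and homology regions on either strand, and all are written 5′ to 3′ on the strand of the gene (GRCm38.p6).
*Mcm5*, chr8:75109339-75109508, plus strand: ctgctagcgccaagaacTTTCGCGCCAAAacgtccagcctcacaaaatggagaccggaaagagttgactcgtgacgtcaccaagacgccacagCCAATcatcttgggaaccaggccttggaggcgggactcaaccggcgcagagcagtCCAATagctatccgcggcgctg
*Mcm3*, chr1:20820313-20820482, minus strand: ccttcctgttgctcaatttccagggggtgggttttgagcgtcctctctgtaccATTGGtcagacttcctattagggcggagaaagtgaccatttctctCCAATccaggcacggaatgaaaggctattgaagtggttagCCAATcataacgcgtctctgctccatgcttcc
*Cdc20*, chr4:118437344-118437513, minus strand: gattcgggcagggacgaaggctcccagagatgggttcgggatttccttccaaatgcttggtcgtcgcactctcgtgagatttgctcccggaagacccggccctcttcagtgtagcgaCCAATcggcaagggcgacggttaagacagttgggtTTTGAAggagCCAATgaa
*Mybl2*, chr2:163054465-163054634, plus strand: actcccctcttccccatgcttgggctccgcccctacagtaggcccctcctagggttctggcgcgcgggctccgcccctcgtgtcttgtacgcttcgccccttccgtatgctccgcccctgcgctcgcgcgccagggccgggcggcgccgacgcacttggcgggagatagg

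The stretch of *Mcm5* holds 2 overlapping E2F sites, 153 and 149 bases before the start, and 2 CCAAT boxes, while a CCAAT box 7 bases after the start and a homology region 221 bases before it are not printed. *Mcm3* holds 3 CCAAT boxes before the start, and its 2 E2F sites lie 20 and 39 bases after it and are not printed. *Cdc20* holds a homology region between its 2 CCAAT boxes, 18 bases before the start, and the arrangement of the elements was not compared between genes. *Mybl2* holds none of the 3 elements by the letters searched, which does not exclude E2F sites written with other letters. Between E2 and 4OHT, the log2 fold changes of the 4 genes were -0.32, -0.35, -0.38 and -0.35 in the order printed, and no relation of element content to the difference was tested.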

How the data were processed

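RNAseq of 9 FVB MOE samples was used, 3 each with DMSO, E2 and 4OHT, grouped by the labels. The authors aligned reads to mm10 with TopHat2 (version 2.0.8b) and deposited FPKM made with Cuffdiff (version 2.1.1) on UCSC gene annotation; whether scaling across libraries entered them is not given in the sources used here. The files used here hold no counts. Read totals that the study gives per library were not used here, so depth is given only relative to 1 sample. All 9 samples entered 1 limma fit (version 3.58.1, R 4.3.3) on log2(FPKM + 1) with a mean-variance trend. A row was tested where 3 or more samples reached 1 FPKM, with p-values adjusted by Benjamini-Hochberg over all of them, with a threshold of 0.05. A fold change on this scale understates that of low rows. An exact permutation test of 3 against 3 cannot go below p = 0.1 and was not run. The script was tested on simulated data with planted changes larger than those of the members, so that test does not cover changes of the size reported here.

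The members and all lists were chosen with earlier results of these data known. Levels per sample were given for the 2 highest members of each role, for members past the threshold with or without the replicate block, and for the 3 largest changes in each direction. Outside the members, up to 3 genes per direction and comparison past the threshold, or else the 2 with the smallest p, were named.

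The labels number the samples of each group 1 to 3 without saying what a number marks. Deviations of same-numbered samples from their group means correlated at 0.523 to 0.828 over the 11094 tested rows without an exact 0, at 0.053 to 0.293 over all 11339 tested rows and at -0.013 to 0.888 over the members. Over the members, E2 and 4OHT correlated at 0.068 for number 1, -0.013 for number 2 and 0.670 for number 3. The numbers were treated as pairing on the rows without an exact 0, and the block was an alternative to the main fit. On all rows, where 245 rows hold exact zeros, the correlations did not reach 0.1 in every pair, so the blocked calls rest on that choice. The block also takes the shift of a replicate number to be alike in every treatment. The members were high in the samples numbered 2 of DMSO and 4OHT but not of E2.

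Alternatives were another pseudocount (0.1), no filter, 2 scalings, 6 samples only, the block, exact zeros as missing and each sample left out. Leaving out a replicate number under the block, and single samples with zeros missing, were added after seeing the data. Transcript lengths and coordinates came from GENCODE M21 (GRCm38).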

Additional observations from a re-analysis of the deposited data

How the results depend on the processing

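Without the replicate block 0 members passed in any of the 3 comparisons, under another pseudocount, no filter, either scaling, 6 samples only, zeros as missing and with any single sample left out. The block gave 5 members against DMSO and 11 against 4OHT, and with exact zeros as missing 13 and 24. For the other replication genes these counts were 4 and 8, and 6 and 12 with zeros as missing. For the other mitosis genes they were 8 and 13, and 15 and 25. Of all tested rows, 4.63% and 7.60% were called lower with the block, and 6.59% and 11.1% with zeros as missing. Under the block, leaving out 1 replicate number gave 0 to 5 members against DMSO and 0 in each case against 4OHT. For the replicate number, 23 members passed with zeros as missing, beside 13, where 49.7% and 44.8% of all tested rows passed. The medians of E2 against DMSO and against 4OHT stayed below 0 under every alternative run. The median of 4OHT against DMSO, 0.04, was -0.017 with upper-quartile scaling and -0.019 with equal FPKM totals, and ran from -0.027 to 0.15 with 1 sample left out. With E2 against 4OHT, the second *Ccne2* row ran from -0.27 to 0.41 and *Cenpe* from -0.020 to 0.25 with 1 sample left out. The cause of these differences was not tested. Relative depth differed 1.44-fold between samples, which limits low rows such as *E2f2* most.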
